A study of Mus musculus with 6 samples.

Results

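The 10 transcription factor genes described here steer blood progenitors towards granulocytes, monocytes, mast cells and basophils, and they were followed in myeloid colonies with and without Psip1. They are the C/EBP genes Cebpa, Cebpb, Cebpd and Cebpe, then Spi1, Gfi1, Irf8 and Klf4, and the mast cell and basophil factors Gata2 and Mitf. The 10 genes were taken by symbol as known lineage regulators, and all 10 were found among the 46983 genes of the count tables. None of the 10 passed edgeR's test between the genotypes (adjusted p = 1.00 for each), and in 9 of them the KO libraries overlapped the deep WT libraries.

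These factors work as a network. C/EBP alpha and PU.1, the product of Spi1, open the myeloid programme in progenitors. C/EBP epsilon and the repressor GFI1 carry it on to granulocytes, while IRF8 and KLF4 favour monocytes. GATA2 is shared by stem cells, mast cells and basophils, and MITF drives the late genes of mast cells. C/EBP factors bind DNA as pairs through a leucine zipper. In mouse progenitors GATA2 together with C/EBP alpha favours basophils and eosinophils, and MITF and C/EBP alpha restrain each other.

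Messenger RNA came from colonies that lineage-depleted C57BL/6 bone marrow, from mice labelled as 8 to 11 weeks old, formed over 6 to 7 days in methylcellulose supplied with stem cell factor and the interleukins IL-3 and IL-6. The KO group (3 libraries) is labelled Psip1-KO, and its genotype is written PsipVav/Vav in the series design. The WT group (3 libraries) is labelled wild type, and the design writes its mice as PsipFl/Fl, that is, with floxed alleles. Psip1 encodes LEDGF, a chromatin reader that recruits the MLL and menin complex, and the series asks whether blood formation needs it. The labels name no Cre line and leave unstated whether each library had its own animal. The p-values therefore measure only the spread between these libraries, which may be technical in part.

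Depth was high in 5 libraries and very low in the sixth. The KO libraries held 7056614 to 15569088 reads on genes, WT replicates 1 and 2 held 14332364 and 10418101, and WT replicate 3 held 27909. The 10 genes together had 11179 to 18473 reads in each of the 5 deep libraries and 40 reads in WT replicate 3, where 1 read was worth 29.9 normalised CPM (counts relative to the library total, scaled by TMM). Values of that library are given as reads. Mitochondrial genes took 15.7% of the gene reads in KO replicate 2 and 1.26% to 1.84% in the other deep libraries. Psip1 itself stood at 14.8, 17.6 and 16.3 CPM in the KO libraries, against 89.3 and 70.0 CPM in the deep WT libraries (log2 fold change -2.32, SE 0.32, edgeR adjusted p = 0.0599), without overlap. Xist, which is transcribed from an inactive X chromosome, had 12107 reads in KO replicate 1 and 5910 in WT replicate 2, where the Y-linked Eif2s3y had 0. KO replicates 2 and 3 had 865 and 1144 Eif2s3y reads, and WT replicates 1 and 3 had 1078 and 4. Each genotype thus held a library high in Xist and libraries with Eif2s3y, so its libraries did not all come from the same animal. Markers of B cells summed to at most 0.633 CPM and those of T cells to at most 1.26 CPM, with Cd3e and Cd3g at 0, so the colonies carried little sign of lymphoid cells.

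Of the 10 factor genes 0 were called by edgeR's quasi-likelihood test at a Benjamini-Hochberg adjusted p of 0.05, where 0% of the 12292 tested genes were called. At an unadjusted p of 0.05 the count was again 0 of 10, against 1.45% of all tested genes. DESeq2 and limma-voom called 0 of the 10 as well, where over all genes they called 1 of 22237 and 0 of 12292. The fitted log2 fold changes of KO over WT ran from -0.67 to 0.86, with 6 positive and 4 negative values and a median of 0.02, next to a median of 0.01 over all tested genes. The 95% intervals of the single genes were wide. The narrowest, that of Cebpa, ran from -1.28 to 0.33, and the widest, that of Gfi1, from -1.27 to 1.34. The interval reached a 2-fold change in 9 of the 10 genes, all but Spi1.

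**Figure D1:**
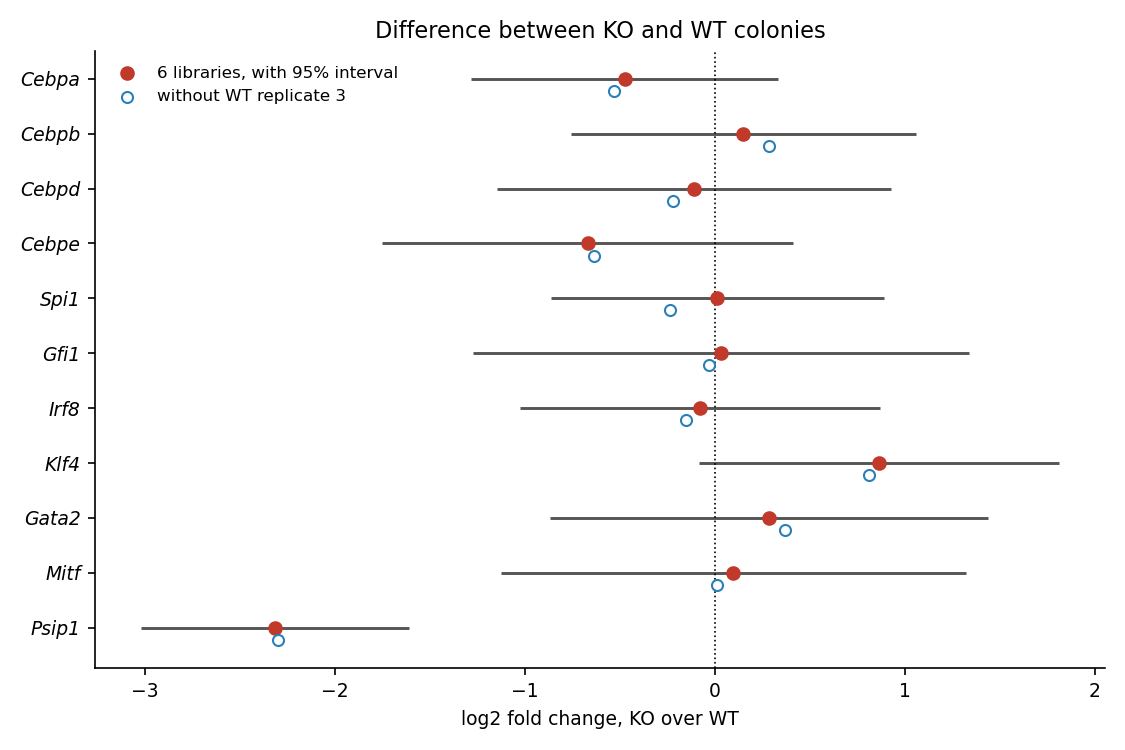
Log2 fold change of KO over WT (x axis) for the 10 factor genes and Psip1 (rows). Filled points with lines are the fit on 6 libraries with its 95% interval, open points the fit without WT replicate 3. The interval of Psip1, from -3.02 to -1.61, lies clear of 0, and those of the 10 factor genes all cross it.

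Among the C/EBP genes, Cebpe varied most. Cebpe (ENSMUSG00000052435.6, chromosome 14, 54710360 to 54712174, minus strand, GRCm38) encodes the factor that turns on secondary granule genes in maturing neutrophils. It stood at 222, 64.5 and 125 CPM in KO replicates 1, 2 and 3, against 127 and 299.8 CPM in WT replicates 1 and 2 and 8 reads in WT replicate 3. The lowest library was KO replicate 2 and the highest was WT replicate 2, and the groups overlapped. Cebpe had a log2 fold change of -0.67 (SE 0.49, edgeR adjusted p = 1.00), with a 95% interval from -1.75 to 0.41. It was -0.33 without KO replicate 2, -0.18 without WT replicate 2, -1.20 without KO replicate 1 (unadjusted p = 0.0354) and -0.98 without WT replicate 1 (unadjusted p = 0.0444), so single libraries moved it by about its standard error in both directions. The fit without WT replicate 1 left WT replicate 2 and the library of 27909 reads as WT, and 740 of 12535 genes had an unadjusted p under 0.05 in it, against 178 of 12292 with all libraries.

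Cebpa (ENSMUSG00000034957.10, chromosome 7, 35119293 to 35121928, plus strand) encodes the factor that commits progenitors to the granulocyte and monocyte path. It held 116, 77.0 and 64.7 CPM in the KO libraries, against 94.8 and 154 CPM in the deep WT libraries and 3 reads in WT replicate 3. Its highest value was in WT replicate 2 and its lowest 2 values were in KO, with overlap between the groups. Cebpa had a log2 fold change of -0.47 (SE 0.37), which stayed below 0 in each of 19 alternatives, from -0.75 without KO replicate 1 to -0.11 without WT replicate 2. Cebpd, which rises with inflammatory signals and granulocyte maturation (ENSMUSG00000071637.4, chromosome 16, 15887286 to 15891031, plus strand), held 74.0, 33.7 and 41.4 CPM in KO and 37.8 and 78.1 CPM in the deep WT libraries, with 0 reads in WT replicate 3. KO replicate 1 and WT replicate 2 were high and the other 3 deep libraries lay close together. Its log2 fold change of -0.11 (SE 0.47) changed sign with the library left out, from -0.49 to 0.53.

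Cebpb, the C/EBP factor of emergency granulopoiesis and macrophages (ENSMUSG00000056501.3, chromosome 2, 167688915 to 167690418, plus strand), held 133, 225 and 98.4 CPM in KO, against 105 and 143 CPM in the deep WT libraries and 7 reads in WT replicate 3. KO replicate 2 alone was high, while the other 4 deep libraries lay between 98.4 and 143 CPM. Its log2 fold change was 0.15 (SE 0.41) with all libraries, 0.16 with mitochondrial genes left out and -0.24 without KO replicate 2. That library held 15.7% mitochondrial reads, and its part in the result beyond these fits was not tested.

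Per exon length, the C/EBP genes took different shares in KO replicate 2 than in the other libraries. Cebpe made up 54.0%, 21.7% and 49.9% of the C/EBP reads per exon length in KO replicates 1, 2 and 3, against 46.9% and 58.1% in WT replicates 1 and 2. Cebpb made up 26.7%, 62.3% and 32.4% in KO and 32.0% and 22.9% in WT. KO replicate 2 was thus the one deep library in which Cebpb, not Cebpe, led the family. Cebpa held 12.2% to 13.4% in KO and 14.0% and 16.5% in WT, without overlap. The difference of -2.68 percentage points had an exact two-sided permutation p of 0.2, the smallest that 3 against 2 libraries allow, and was picked from 4 shares after their values were seen. The 3 other shares overlapped between the groups, with exact permutation p of 0.4 to 0.8.

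**Figure D2:**
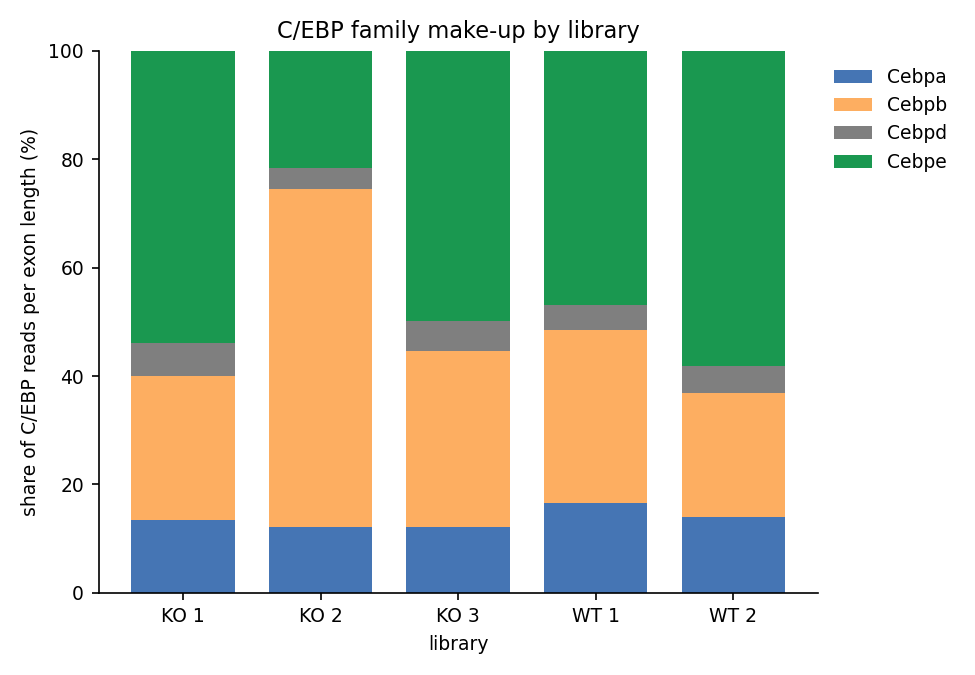
Share of each C/EBP gene in the family's reads per exon length (y axis, percent) in the 5 deep libraries (x axis, KO left, WT right). Cebpe is the largest part in 4 libraries, at 46.9% to 58.1%, and Cebpb is the largest in KO replicate 2, at 62.3%.

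RefSeq promoter windows (GRCm38.p6) were present for 7 of the 10 genes, Cebpa, Cebpb, Gata2, Gfi1, Irf8, Klf4 and Mitf, with 12 start sites in all. The 250 bases before each start were searched on both strands for short forms of the motifs that these factors bind. The forms were TTGCNNAA for C/EBP, GAGGAAG for PU.1, AGATAA for GATA factors, CACATG for MITF, GGGTGG for KLF factors and AANNGAAA for IRF factors. They occur in 9.56%, 10.6%, 9.99%, 12.3%, 28.1% and 21.3% of all 32851 windows. None of the motifs overlapped another in the windows of these genes. The window of Cebpa is shown because Cebpa stands at the head of the granulocyte path, and its single match, to the KLF form (GGGTGG), is in capitals. A match is a description of letters and not a binding site, and the counts, which cover whole genes, do not show which start was used.
Cebpa, chr7:35119043-35119292, plus strand: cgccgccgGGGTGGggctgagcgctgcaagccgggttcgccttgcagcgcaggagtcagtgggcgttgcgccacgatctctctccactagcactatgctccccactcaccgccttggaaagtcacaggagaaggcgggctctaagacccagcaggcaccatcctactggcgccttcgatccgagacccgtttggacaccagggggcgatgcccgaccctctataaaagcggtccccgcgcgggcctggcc

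Spi1 varied least over the deep libraries among the 10 factor genes. Spi1 (ENSMUSG00000002111.8, chromosome 2, 91082390 to 91115756, plus strand) encodes PU.1, which all granulocytes and monocytes need. It held 365, 261 and 380.4 CPM in the KO libraries, against 367 and 422 CPM in the deep WT libraries. The highest deep library was 1.61 times the lowest, and 38.8% of the 9063 genes with a mean of at least 10 CPM had a smaller range. WT replicate 3 held 4 Spi1 reads, and counting error alone allows 1.09 to 10.2 (95%, exact). At the KO mean 11.2 reads would be due, and at the mean of the deep WT libraries 13.2. That library thus lay below both means, and the log2 fold change was 0.01 (SE 0.40) with it and -0.23 (SE 0.30) without it. With all 6 libraries the 95% interval ran from -0.86 to 0.89.

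Gfi1 differed widely within each genotype. Gfi1 (ENSMUSG00000029275.17, chromosome 5, 107716657 to 107726036, minus strand) encodes a zinc finger repressor that keeps granulocyte precursors from monocyte genes. It held 217, 111 and 50.5 CPM in KO replicates 1, 2 and 3, against 54.4 and 203 CPM in WT replicates 1 and 2 and 3 reads in WT replicate 3. KO replicate 1 and WT replicate 2 were high, KO replicate 3 and WT replicate 1 were low, and KO replicate 2 lay between them. The range within KO was 4.28-fold and that within the deep WT libraries 3.73-fold. The log2 fold change of 0.03 (SE 0.59) went to -0.61 without KO replicate 1 and to 1.09 without WT replicate 2.

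Irf8 was the scarcest factor gene per exon length, while in CPM Klf4 lay below it in both deep WT libraries. Irf8 (ENSMUSG00000041515.9, chromosome 8, 120736358 to 120756694, plus strand) encodes the factor of monocytes and dendritic cells that opposes granulocyte formation. It held 19.5, 23.7 and 29.5 CPM in KO, against 36.1 and 17.5 CPM in the deep WT libraries and 0 reads in WT replicate 3. The KO values lay between the 2 WT values. Irf8 had a log2 fold change of -0.08 (SE 0.43), and 0.61 without WT replicate 1. Gfi1 had 24.6, 10.3 and 3.79 times the level of Irf8 per exon length in KO replicates 1, 2 and 3, against 3.33 and 25.6 times in WT replicates 1 and 2. The lowest ratios were those of KO replicate 3 and WT replicate 1.

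Klf4 was the one factor gene whose deep libraries did not overlap between the genotypes. Klf4 (ENSMUSG00000003032.8, chromosome 4, 55527143 to 55532466, minus strand) encodes a zinc finger factor that promotes monocyte differentiation. It held 22.6, 33.1 and 31.7 CPM in KO replicates 1, 2 and 3, against 22.1 and 10.9 CPM in WT replicates 1 and 2. KO replicate 1 and WT replicate 1 were nearly level. Their 95% counting intervals were 20.0 to 25.3 and 19.7 to 24.7 CPM. The means were 29.1 ± 5.70 CPM in KO (SD, n = 3) and 16.5 CPM in the deep WT libraries. The fit put Klf4 at 0.86 on the log2 scale (SE 0.43), which is 1.82-fold (95% interval 0.945 to 3.51), with an unadjusted p of 0.0695 and an adjusted p of 1.00 by edgeR. Non-overlap of the deep libraries with KO higher was met by 1 of the 10 genes and by 4.79% of all tested genes, and with KO lower by 0 of the 10 and 3.87%. Over all 6 libraries, with a listed 0 taken as the lowest value, the counts in either direction were 1 of 10 and 4.77%. Klf4 had 0 reads in WT replicate 3, whose 95% counting interval reaches 110.2 CPM, above every KO value, so that library does not bear on the order. The value of Klf4 turned mainly on the WT libraries. It was 1.53 without WT replicate 1 (unadjusted p = 0.0106, in the fit with 740 of 12535 genes under 0.05) and 0.51 without WT replicate 2, and no alternative called it. The promoter window of Klf4 is shown because this gene had the largest fitted difference. The stretch after its RefSeq start was not found whole in a GENCODE transcript of Klf4, whose coordinates end at 55532466. The window holds none of the motifs searched, which says nothing of the factors themselves.
Klf4, chr4:55532476-55532725, minus strand: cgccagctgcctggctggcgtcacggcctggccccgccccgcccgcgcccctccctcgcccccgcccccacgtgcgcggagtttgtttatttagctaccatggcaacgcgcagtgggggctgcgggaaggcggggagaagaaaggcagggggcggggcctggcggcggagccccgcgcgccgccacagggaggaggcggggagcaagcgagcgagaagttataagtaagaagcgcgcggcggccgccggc

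Gata2, which encodes a zinc finger factor of progenitors, mast cells and basophils, had a KO mean set by 1 library. Gata2 (ENSMUSG00000015053.14, chromosome 6, 88193891 to 88207032, plus strand) held 264, 897 and 211 CPM in KO replicates 1, 2 and 3, against 333 and 371 CPM in WT replicates 1 and 2 and 15 reads in WT replicate 3. KO replicate 2 was high, and KO replicates 1 and 3 lay below both deep WT libraries. The KO mean was 457 ± 382 CPM (SD, n = 3) and the mean of the deep WT libraries 352 CPM. Its log2 fold change was 0.29 (SE 0.53), 0.30 with mitochondrial genes left out, and -0.66 without KO replicate 2, which carried 15.7% mitochondrial reads. Per exon length Cebpe had 3.65, 0.313 and 2.58 times the level of Gata2 in KO replicates 1, 2 and 3, against 1.66 and 3.51 times in WT replicates 1 and 2. KO replicate 2 was therefore the one deep library in which Gata2 exceeded Cebpe.

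Mitf, the mast cell factor (ENSMUSG00000035158.15, chromosome 6, 97807052 to 98021349, plus strand), held 20.8, 42.9 and 52.6 CPM in KO, against 60.5 and 16.2 CPM in the deep WT libraries and 0 reads in WT replicate 3. WT replicate 1 and KO replicate 3 were high and KO replicate 1 and WT replicate 2 were low. Values of the 2 deep WT libraries differed by 3.74-fold, more than any 2 KO libraries, at 2.52-fold. Mitf had a log2 fold change of 0.10 (SE 0.56), which ran from -0.44 without WT replicate 2 to 1.39 without WT replicate 1 (unadjusted p = 0.0202, in that same fit). Gata2 had 14.5, 24.0 and 4.60 times the level of Mitf per exon length in KO, against 6.33 and 26.4 times in WT. The promoter windows of both genes at their first annotated start are shown, as the pair that marks the mast cell and basophil branch. Gata2 holds none of the motifs, and Mitf holds 1 match to the C/EBP form, TTGCGGAA, 129 to 122 bases before the start, in capitals.
Gata2, chr6:88193641-88193890, plus strand: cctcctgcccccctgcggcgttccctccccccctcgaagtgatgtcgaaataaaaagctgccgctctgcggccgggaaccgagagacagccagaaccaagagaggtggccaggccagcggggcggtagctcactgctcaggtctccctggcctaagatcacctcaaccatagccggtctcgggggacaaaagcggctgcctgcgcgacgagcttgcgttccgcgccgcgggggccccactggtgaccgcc
Mitf, chr6:97806808-97807057, plus strand: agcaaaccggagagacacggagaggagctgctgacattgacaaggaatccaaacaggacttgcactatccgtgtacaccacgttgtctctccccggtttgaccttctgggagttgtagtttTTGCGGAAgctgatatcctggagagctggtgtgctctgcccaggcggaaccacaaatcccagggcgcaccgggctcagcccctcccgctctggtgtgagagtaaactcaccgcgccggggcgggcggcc

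**Figure D3:**
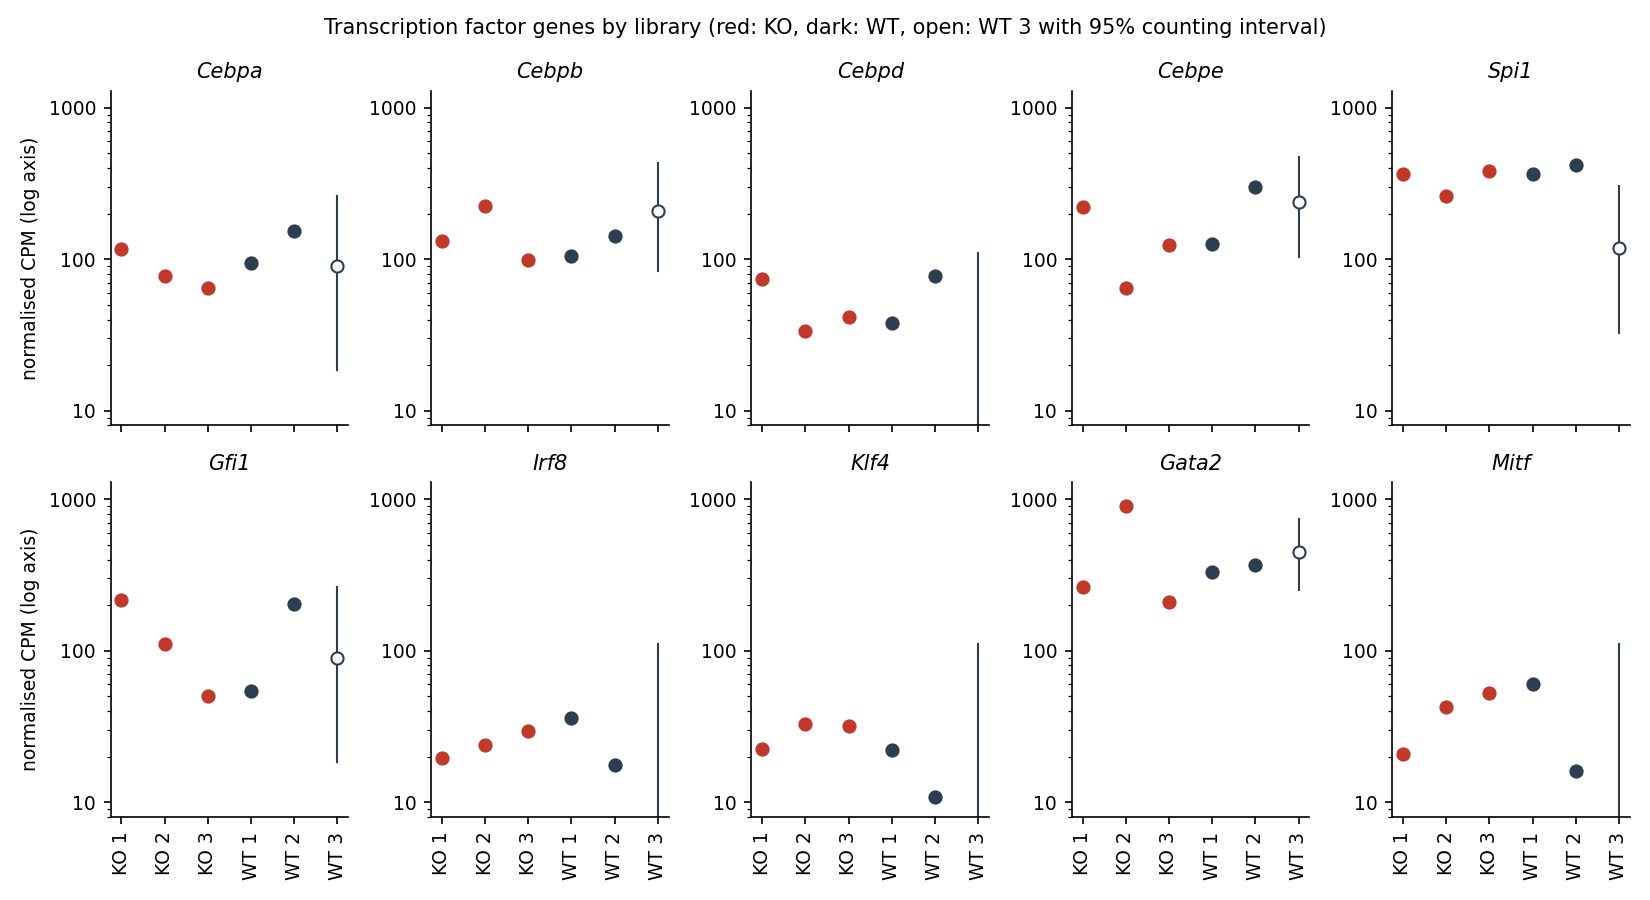
Normalised CPM (y axis, log scale) of the 10 factor genes in the KO libraries (red) and WT libraries (dark). Open points and lines give WT replicate 3 with its 95% counting interval, and a line without a point marks 0 reads. Cebpe, Gfi1, Gata2 and Mitf spread over more than 3-fold within the deep WT or the KO libraries, and Klf4 alone has every deep KO library above every deep WT library.

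Compared per exon length, the same 4 genes led in both genotypes. They were Spi1, Cebpe, Cebpb and Gata2, with means of 125, 110, 101 and 84.7 CPM per kilobase in KO and 146, 172, 82.5 and 65.2 in the deep WT libraries. Gfi1 followed at 39.5 in KO and 40.3 in WT, and Cebpa at 32.6 in KO and 47.1 in WT. Cebpd, Klf4, Mitf and Irf8 were lowest, at 13.3, 9.55, 6.26 and 3.44 CPM per kilobase in KO and 15.5, 5.40, 6.18 and 3.80 in WT. In the order of KO means the values of neighbours overlapped in 8 of 9 pairs, all but Cebpa and Cebpd, and Gata2 alone ran from 39.0 to 166 CPM per kilobase. In the order of WT means they overlapped in 5 of 9 pairs, with 2 deep libraries a gene. Those that did not overlap in WT were Spi1 and Cebpb, Cebpb and Gata2, Gata2 and Cebpa, and Cebpd and Mitf.

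The factors were grouped by library in ways that crossed the genotypes. KO replicate 3 and WT replicate 1 differed by a root mean square of 0.34 log2 CPM over the 10 genes, and KO replicate 1 and WT replicate 2 by 0.43. The 4 pairs of the same genotype lay at 0.92, 0.95, 1.05 and 1.12, and the 4 remaining pairs of a KO with a WT library at 0.81, 0.94, 1.20 and 1.23, so both the closest and the farthest pairs crossed the genotypes. The 9063 genes of at least 10 CPM gave the same 2 closest pairs, at 0.28 and 0.35, against 0.59 to 0.85 within genotypes and 0.69 to 0.83 for the other crossed pairs. KO replicate 1 and WT replicate 2 were also the libraries with 12107 and 5910 Xist reads, where each other library had at most 1, and the part of sex in the pattern was not tested.

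The summed level of neutrophil markers was high in the libraries in which Cebpe, Gfi1, Cebpa and Cebpd were high. The 12 neutrophil markers, all of them detected, summed to 91978, 42382 and 37647 CPM in KO replicates 1, 2 and 3, against 47873 and 103733 CPM in WT replicates 1 and 2. The order of the 5 libraries by this sum was the order by Cebpa. Of its single markers, Elane was high in KO replicate 1 and WT replicate 2, at 1289 and 2239 CPM. Lcn2 did not follow the sum, being lower in KO replicate 1 (2091 CPM) than in WT replicate 1 (2499 CPM). In bulk colonies, fewer cells of a type and less RNA per cell cannot be told apart. The 9 mast cell markers summed to 1929, 5408 and 3609 CPM in KO, against 3787 and 2053 CPM in WT, and the 2 libraries lowest in Mitf were the 2 lowest in this sum. Its highest library, KO replicate 2, was the third in Mitf, and WT replicate 1, the highest in Mitf, was second in the sum. A large part of the sum was Cpa3, at 1156, 3453 and 2606 CPM in KO, against 2488 and 854 CPM in WT. Mcpt4, Cma1 and Hdc, also in the sum, did not follow Mitf. They held 74.4, 176 and 459 CPM in WT replicate 2, where Mitf was lowest. In KO replicate 3, where Mitf was high, they held 9.70, 87.6 and 376 CPM. The 3 basophil markers (Mcpt8, Prss34 and Cd200r3) summed to 1264, 4165 and 716 CPM in KO, against 1864 and 2769 CPM in WT, in the order of Gata2. The 8 monocyte markers summed to 1371, 1181 and 1860.4 CPM in KO, against 1874 and 1439 CPM in WT, where KO replicate 2 was lowest although its Klf4 level was the highest. The part of cell make-up in the levels of the factors was not tested.

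**Figure D4:**
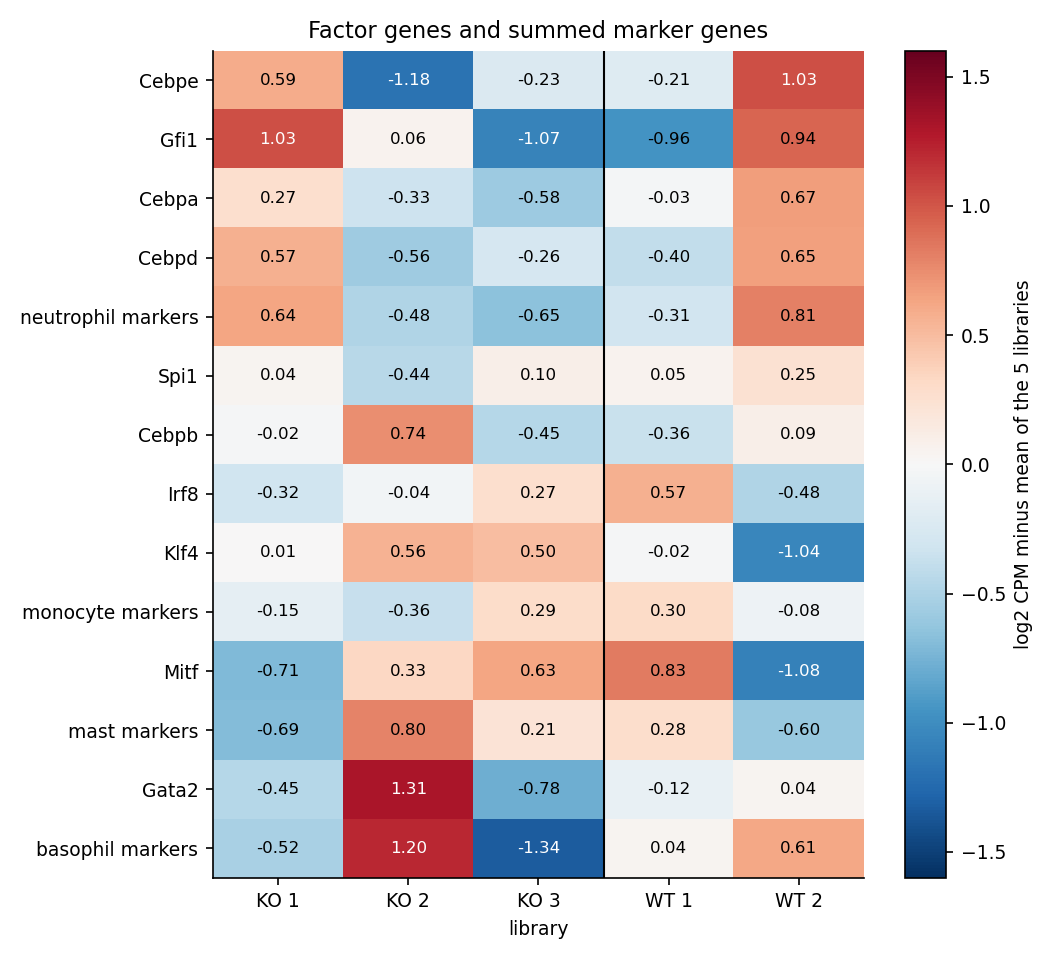
Log2 CPM minus the mean of the 5 deep libraries (colour and printed value) for the 10 factor genes and for summed marker genes (rows) in each library (columns, KO left of the line, WT right). Cebpe, Gfi1, Cebpa, Cebpd and the neutrophil markers are above their mean in KO replicate 1 and WT replicate 2, where Mitf and the mast cell markers are below theirs.

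Genes with the pattern most like a factor over the 5 deep libraries were taken by the smallest root mean square difference in centred log2 CPM. Gfi1 was closest to Gp9, Krt83 and Gp1bb, at 0.11 to 0.12, of which Gp9 and Gp1bb encode parts of a platelet receptor. Gata2 was closest to Pdzd4, Cuedc1 and Osm, the gene of the cytokine oncostatin M, at 0.06 to 0.09. Osm held 170.4, 601 and 144 CPM in KO, against 191 and 244 CPM in WT, so that KO replicate 2 again stood alone. Mitf was closest to Cd200r4, Homer2 and Spred1, an inhibitor of Ras signalling, at 0.06 to 0.10. Klf4 was closest to Jup, which encodes plakoglobin, Atp6v0d2, a proton pump subunit of macrophages and osteoclasts, and Mfhas1, at 0.07 to 0.14. Cebpe was closest to Plac8, Fmo5 and Ica1, at 0.11 to 0.13. Cebpa had Hmgn5, Gria3 and Prps1, Cebpb had Selenok, Ssb and Klf2, Cebpd had Tmem110, Rab3d and Hlx, and Irf8 had Xpo1, Zfp944 and Entpd7. Spi1, with a range under 1 log2 unit, was left out of this search. With 5 libraries such likeness is a description only.

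Other transcription factors of blood lineages gave no call. All 28 listed genes were tested, 0 passed by edgeR in either direction, and 0 had an unadjusted p under 0.05. The median log2 fold change was 0.05, with 15 positive and 13 negative values. Egr2, a monocyte factor, was at 0.92 (SE 0.52), with 28.9, 76.1 and 28.6 CPM in KO, against 27.9 and 16.0 CPM in the deep WT libraries, and at 0.28 without KO replicate 2. Rara, the retinoic acid receptor, was at 0.67 (SE 0.43), and at 0.17 without KO replicate 2. Tcf4, a factor of plasmacytoid dendritic cells, was at -0.38 (SE 0.37), and Erg, a stem cell factor, at -0.25 (SE 0.43).

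Fitted log2 fold changes of partners, relatives and inhibitors of the 10 factors lay close to 0, with wide intervals. Of 21 listed genes 20 were tested, all but Trib2, and 0 passed by edgeR, with 0 at an unadjusted p under 0.05. The values ran from -0.33 to 0.18 with a median of -0.08. Cebpg, a short C/EBP protein that pairs with the others, held 58.6, 38.6 and 46.1 CPM in KO, against 57.9 and 60.0 CPM in WT (log2 fold change -0.30, SE 0.32). Hdac1, a corepressor enzyme that GFI1 recruits, was at -0.33 (SE 0.40), with a 95% interval from -1.20 to 0.54. Tfeb, a relative of MITF, was at 0.18 (SE 0.39), as was Fos (SE 0.39), which encodes an AP-1 subunit.

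Granulocyte genes that C/EBP factors and GFI1 are known to control gave no call, with more values below 0 than above. All 17 were tested, 12 were negative and 5 positive, the median was -0.32, and 0 passed by edgeR, with 0 at an unadjusted p under 0.05. Over all tested genes 5899 values were negative and 6393 positive, with a median of 0.01. Elane, the neutrophil elastase, held 1289, 316 and 246 CPM in KO, against 267 and 2239 CPM in the deep WT libraries (log2 fold change -0.79, SE 0.79), and was at 0.62 without WT replicate 2. Its high libraries were those of Gfi1. Lcn2, a secondary granule gene that C/EBP epsilon activates, held 2091, 822 and 1822 CPM in KO, against 2499 and 2824 CPM in WT (log2 fold change -0.52, SE 0.48), and the lowest was KO replicate 2, where Cebpe was lowest. Mmp9, a gelatinase of tertiary granules, was at 0.90 (SE 0.74), and Csf3r, the G-CSF receptor, at 0.50 (SE 0.38).

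Monocyte and macrophage genes linked to PU.1 and IRF8 were not called either. All 19 were tested, 12 were positive and 7 negative, the median was 0.16, and 0 passed by edgeR, with 0 at an unadjusted p under 0.05. Fcgr3, a receptor for IgG, was at 0.38 (SE 0.33), and Csf2rb, the shared beta chain of the IL-3 and GM-CSF receptors, at 0.59 (SE 0.62). Without WT replicate 3, which held 6 Csf2rb reads where the deep WT mean would give 50.9, Csf2rb was at 0.15. Without WT replicate 1 it was at 1.41 (unadjusted p = 0.0199, in the fit with 740 of 12535 genes under 0.05). Cd14, a co-receptor for lipopolysaccharide, held 33.4, 56.6 and 121 CPM in KO, against 182 and 40.8 CPM in WT (log2 fold change -0.63, SE 0.60), and was at 0.67 without WT replicate 1. Ncf1, a subunit of the phagocyte oxidase, was at -0.22 (SE 0.38).

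Mast cell genes linked to GATA2 and MITF spread to both sides. All 17 were tested, 8 were positive and 9 negative, the median was -0.14, and 0 passed by edgeR. An unadjusted p under 0.05 was met by 1 of the 17, Mcpt4, and by 1.45% of all tested genes. Mcpt4, a mast cell chymase, held 5.59, 13.6 and 9.70 CPM in KO, against 21.6 and 74.4 CPM in the deep WT libraries and 1 read in WT replicate 3. All deep KO libraries lay below both deep WT libraries, as for 3.87% of all tested genes, Cma1 and Lcn2 among them. In 4.79% of tested genes, Egr2 and Fcgr3 among them, all deep KO libraries lay above. Mitf did not share the order of Mcpt4, being lowest in WT replicate 2, where Mcpt4 was highest. The log2 fold change of Mcpt4 was -2.28 (SE 0.53, edgeR adjusted p = 0.894). Without WT replicate 1 it was called (log2 fold change -2.76, edgeR adjusted p = 0.00749), and without WT replicate 2 it was at -1.21. The first of these fits left WT replicates 2 and 3, of which the third held 27909 reads in all. That fit called 5 of 12535 genes, and 740 had an unadjusted p under 0.05. Cma1, a second chymase gene, was at -0.76 (SE 0.48). Cpa3, the mast cell carboxypeptidase, was at 0.75 (SE 0.56) and at 0.39 without KO replicate 2. It was at 1.52 without WT replicate 1 (unadjusted p = 0.0102, in the fit with 740 of 12535 genes under 0.05). Hdc, the histamine-forming enzyme, was at 0.70 (SE 0.48) and at -0.06 without KO replicate 2.

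**Figure D5:**
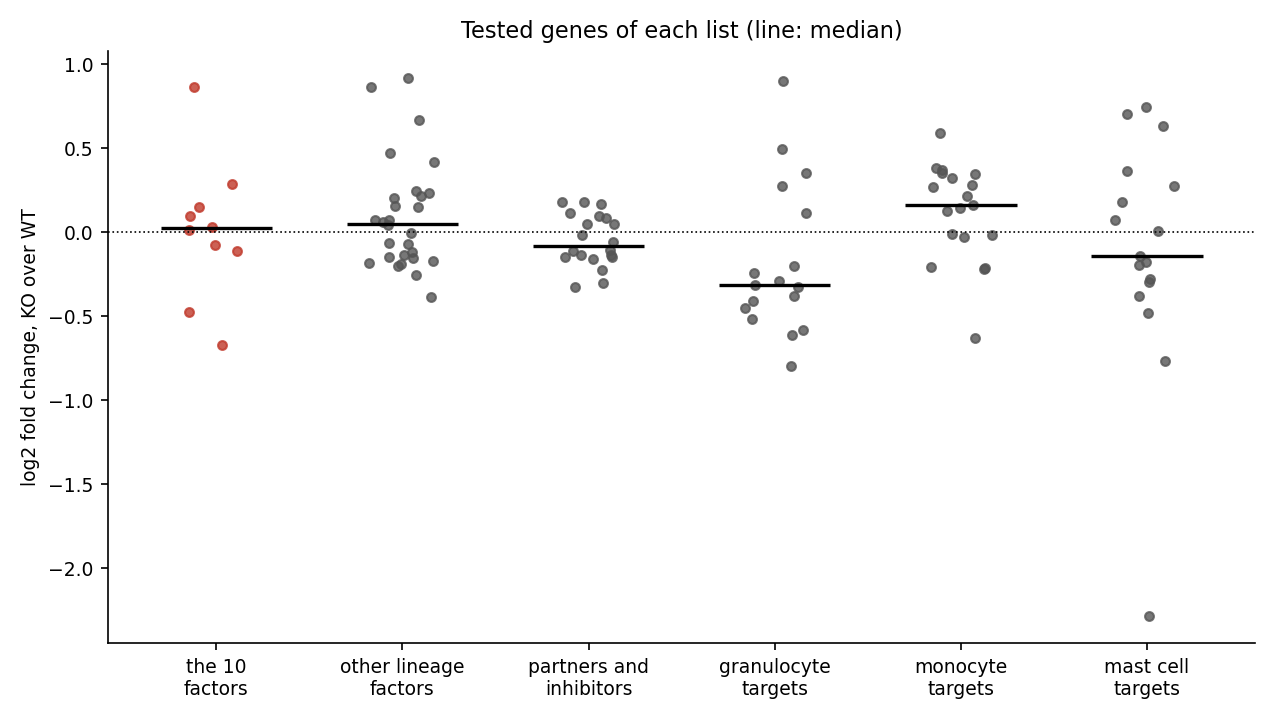
Log2 fold change of KO over WT (y axis) for each tested gene of the 10 factors and of the 5 gene lists (x axis), with the median as a line. The medians run from -0.32 to 0.16, and the single point near -2.28 among the mast cell genes is Mcpt4.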

How the data were processed

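Polyadenylated RNA was made into stranded libraries (Illumina TruSeq), per the labels' protocols. The authors deposited read counts per gene, 1 file per run, 7 in all. Per the submitters' processing notes STAR 2.5.1b, the build GRCm38 and DESeq2 were involved, in roles left unstated. No annotation release is stated. Column 4, the reverse-strand count, was used, which held 95.6% to 97.5% of stranded gene reads. Rows that name no gene, 25.6% to 47.8% of reads, were left out. The 2 runs of WT replicate 3 were summed. Symbols, coordinates and exon lengths came from GENCODE M21, in which 46488 of 46983 identifiers matched, 37902 with the same version. The exon length of a gene is the union of all its annotated exons.

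Genes were filtered (filterByExpr), scaled (TMM) and tested across all 12292 genes with edgeR 4.0.16 (robust glmQLFit, glmQLFTest, two-sided, Benjamini-Hochberg), with genotype as the only term. Standard errors are the log2 fold change over the root of F, and 95% intervals use the fit's degrees of freedom. DESeq2 1.42.0 and limma 3.58.1 were alternatives. Intervals for single counts are exact Poisson, and cover counting error only. Likeness of patterns used log2(CPM + 0.5). All 10 genes were named, and from each list the 2 of lowest p per direction. Members and lists were chosen with earlier results of these data known.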

Additional observations from a re-analysis of the deposited data

How the results depend on the processing

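The count of factor genes called was 0 in all 21 alternatives. The 19 alternative fits called 0 to 13 of 12278 to 22237 genes, so 0 of 10 was near the share over all genes. Cebpa, Cebpe and Klf4 kept their sign in all 19 fits, and the other 7 genes turned sign in 27 of their 133 values. Leaving out 1 library each gave log2 fold changes of -0.24 to 0.42 for Cebpb, -0.49 to 0.53 for Cebpd, -0.23 to 0.28 for Spi1, -0.61 to 1.09 for Gfi1, -0.42 to 0.61 for Irf8, -0.66 to 0.67 for Gata2 and -0.44 to 1.39 for Mitf. Among list genes the same ranges were -0.59 to 0.09 for Erg, -0.16 to 0.86 for Fos, -0.51 to 0.13 for Hdac1, -0.0022 to 2.08 for Mmp9, -1.92 to 0.62 for Elane, -1.26 to 0.67 for Cd14 and -0.0594 to 1.00 for Hdc. Other turned signs were Cebpd (0.0222) and Irf8 (0.024) with DESeq2 (which put the median of all genes at -0.32), Spi1 (-0.24), Gfi1 (-0.0384) and Mitf (-0.0061) with DESeq2 on the 5 deep libraries, Spi1 (-0.0428) and Gfi1 (-0.018) with library size only, Spi1 with limma-voom (-0.20), and Spi1 (-0.0304) and Ncf1 (0.0732) when WT replicate 3 was its second run only. Libraries of the same replicate number had correlations of deviations from their group means of -0.31, -0.04 and -0.18. The WT mean includes WT replicate 3, with 27909 reads, so these values do not settle whether replicates were paired. With the replicate block Cebpd was at 0.10 and Gata2 at -0.0078, 0 factor genes were called, and 13 of all genes were, against 0 without it. Called mast cell genes were 0 to 1 when 1 library was left out, and 1 at an unadjusted p of 0.05. The cause of these changes was not tested. Unadjusted p under 0.05 arose for Klf4 with limma-voom (0.0470) and with the second run alone (0.0371). The alternatives for the gene lists were added after the data were seen. In WT replicate 3 the 95% interval of a listed 0 reaches 110.2 CPM, more than the level of Cebpd, Irf8, Klf4 and Mitf in every other library.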
